A study of Mus musculus with 7 samples.

Results

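Cadherins and protocadherins are cell surface proteins that hold neighbouring cells together through repeated extracellular domains that bind calcium. They were taken here as every row of the gene count table whose symbol is Cdh followed by a number or starts with Pcdh, which gave 52 of 18468 rows. Of these 52, 36 had enough reads to be tested, as did 12388 rows of the whole table. RNA had been sequenced from C3H10T1/2 cells, a mouse line of mesenchymal cells used as a model of multipotent stromal cells. All cells were kept without serum for 12 h before treatment and throughout it. The 4 purmorphamine libraries came from cells then given 2 μM purmorphamine, a small molecule that activates Smoothened and so the Hedgehog pathway, for 48 h, and the 3 DMSO libraries from cells given the vehicle at 0.02%. No genetic change separated the groups, a single cell line was used, and no source says that the libraries came from separate cultures, so p-values measure the spread between these libraries, which may be technical.

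Library totals lay between 14337225 and 14342154 reads, since the authors had drawn every library down to an equal depth. At this depth 3 reads, the limit that a count of 0 allows, correspond to 0.209 CPM (reads scaled to a common library total). The treatment was visible in the Hedgehog targets. Gli1, the transcription factor induced by the pathway, had 12, 7 and 11 reads with DMSO and 2811, 3171, 2576 and 2522 with purmorphamine. Ptch1, the receptor that the pathway induces, rose by 4.34 on the log2 scale (edgeR adjusted p = 6.39e-18). All 10 mesenchymal markers on a fixed list were measured in both groups, with summed reads between 414213 and 433389 with DMSO and between 400794 and 432604 with purmorphamine. Singly they moved in both directions, and 3 increased and 3 decreased, beside 31.4% and 31.1% of all genes tested. Vim (vimentin) fell by 0.96 on the log2 scale (edgeR adjusted p = 1.73e-11), and Pdgfra, a growth factor receptor, rose by 0.76 (edgeR adjusted p = 3.92e-10).

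Classical cadherins bind the same or a related cadherin on the next cell and, inside the cell, catenins that join them to actin. Type I members such as E-cadherin and N-cadherin make strong junctions in epithelia and in mesenchymal or neural tissue, and type II members are found in vessels, bone, mesenchyme and brain. Protocadherins lack the catenin-binding tail. Some are encoded by single genes, whereas the alpha, beta and gamma protocadherins lie in clusters from which neurons choose promoters to give each cell its own surface identity.

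In the comparison of purmorphamine with DMSO, 7 of the 36 members tested increased and 18 decreased, while 11 were not called. The test was edgeR's quasi-likelihood test over all genes, and calls were made where the adjusted p (Benjamini-Hochberg) lay under 0.2, the rate used in the study. Of all genes tested, 31.4% were called increased and 31.1% decreased. Of 10 Cdh rows tested, 6 increased and 2 decreased, and the median log2 fold change was 0.46. Cdh5 and Cdh17 had fewer than 10 reads in every DMSO library and so passed the filter on low counts only through the purmorphamine libraries, where they were high. Without them, 4 of 8 Cdh rows increased and 2 decreased, with a median of 0.21. Of all 34 members left, 5 increased and 18 decreased. Of 26 Pcdh rows tested, 1 increased and 16 decreased, with a median of -0.24, beside 0.0038 over all genes tested. The difference between Cdh and Pcdh rows was not tested, and 20 of the 26 Pcdh rows belong to a single cluster of paralogs. Changes of at least 1.5-fold were called for 5 members that increased and 4 that decreased, beside 7.89% and 7.56% of all genes tested. The 5 include Cdh5 and Cdh17, which were tested only because they were high with purmorphamine. In 7 members every purmorphamine library held more deposited reads than every DMSO library. In 12 every purmorphamine library held fewer, beside 29.1% and 20.4% of all genes tested. These reads are not normalized, and the 7 include Cdh11, which was not called after normalization, and also Cdh5 and Cdh17. In RNA from whole cultures, fewer cells of a type and less RNA per cell cannot be told apart.

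**Figure D1:**
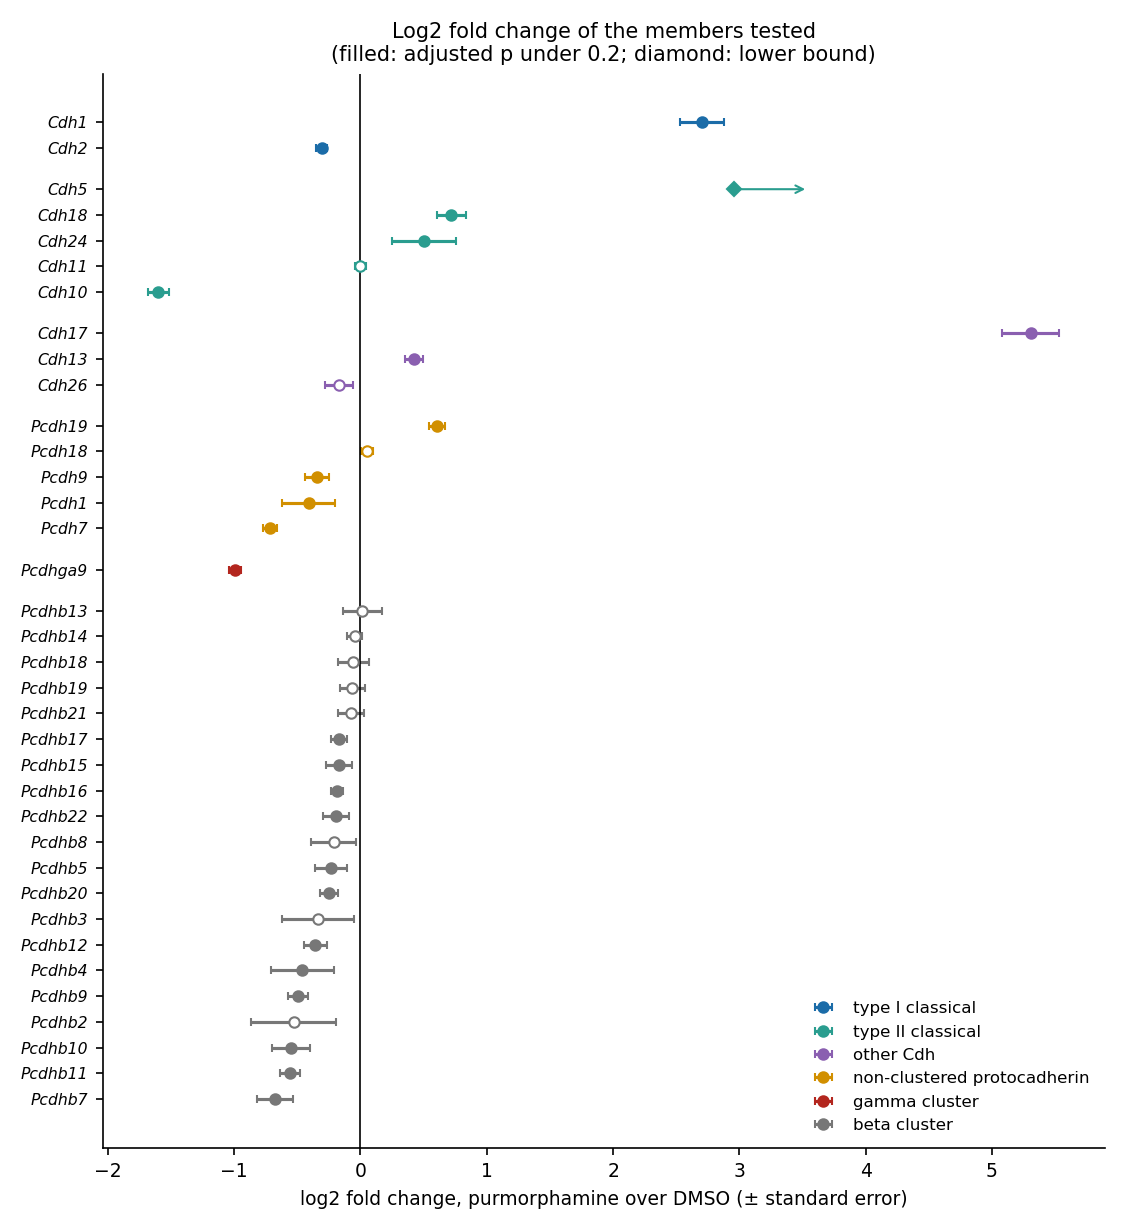
Log2 fold change of purmorphamine over DMSO for the 36 members tested, grouped by family, with bars for the standard error, filled points for edgeR adjusted p under 0.2 and a diamond with an arrow for the lower bound of Cdh5. Cdh17 lies farthest to the right at 5.31, Cdh10 farthest to the left at -1.60, and 19 of the 20 beta cluster points lie below 0.

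The type I cadherins moved in opposite directions. Cdh1 encodes E-cadherin, the adhesion protein of epithelial junctions, and lies at chr8:106603351-106670246 (GRCm38, as are all gene positions given here). It had 14, 21 and 21 reads in the DMSO libraries and 135, 110, 128 and 132 in the purmorphamine libraries, so the groups did not overlap. The DMSO mean was 18.7 ± 4.04 reads (SD, n = 3) and the purmorphamine mean 126 ± 11.2 (SD, n = 4). Cdh1 rose by 2.70 on the log2 scale, with a standard error (SE) of 0.174 and an edgeR adjusted p of 1.14e-09. Other epithelial markers were too low to be compared with it. Of 9 on the fixed list, 3 had a row and none held more than 1 read in any library. Cdh2 encodes N-cadherin, which mesenchymal cells use for their contacts. It had 6062, 6154 and 5986 reads with DMSO and 5073, 4856, 5031 and 5305 with purmorphamine. All purmorphamine libraries were below all DMSO libraries, and Cdh2 fell by 0.31 on the log2 scale (SE 0.0445, edgeR adjusted p = 2.39e-05). The third type I row, Cdh3 (P-cadherin), had too few reads to test.

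Among the 5 type II cadherins tested, 3 increased, 1 decreased and 1 was not called, beside 31.4% increased and 31.1% decreased of all genes tested. The 3 include Cdh5, which was tested only because it was high with purmorphamine, and Cdh24, whose call was lost in other fits. Cdh5 encodes VE-cadherin, the junction protein of the endothelium, and lies at chr8:104101625-104144511. No read of it was counted in any DMSO library, and 21, 26, 22 and 24 reads were counted in the purmorphamine libraries. Against 3 reads per library, the purmorphamine mean of 23.2 was at least 7.75-fold higher. No p-value is given for Cdh5, since it passed the filter on low counts only through the purmorphamine libraries. Of 7 endothelial markers on the fixed list, 6 had a row and 1 was tested. That gene was Tek, the angiopoietin receptor, which rose by 1.25 on the log2 scale (edgeR adjusted p = 1.18e-11). The other endothelial markers stayed at 5 reads or fewer in every library, and the summed level of the list was 781 to 823 reads with DMSO and 1875 to 2128 with purmorphamine. The part of Tek and the other endothelial markers in the Cdh5 result was not tested.

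Cdh10 had the largest decrease of the 36 members tested. It encodes a type II cadherin known mainly from the brain and lies at chr15:18818947-19014236. It had 535, 474 and 472 reads with DMSO and 182, 154, 171 and 166 with purmorphamine, with no overlap. The mean went from 494 ± 35.8 reads to 168 ± 11.6, a log2 fold change of -1.60 (SE 0.0825, edgeR adjusted p = 6.61e-11). Cdh18, another type II cadherin of the nervous system, lies on the same chromosome at chr15:22549022-23474418 and moved the other way. It had 100, 100 and 101 reads with DMSO and 154, 165, 199 and 165 with purmorphamine. The log2 fold change was 0.72 (SE 0.115, edgeR adjusted p = 6.37e-05).

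Cdh24, a type II cadherin that binds catenins, was near the limit of detection of a change. It had 14, 17 and 15 reads with DMSO and 17, 28, 21 and 24 with purmorphamine, so the groups met at 17 reads. Its log2 fold change was 0.50 (SE 0.251, edgeR adjusted p = 0.112). The call was lost without DMSO replicate 2 (adjusted p = 0.257), DMSO replicate 4 (adjusted p = 0.21) or purmorphamine replicate 6 (adjusted p = 0.246), all from edgeR, and in DESeq2 (adjusted p = 0.313). Cdh11 encodes OB-cadherin, the main cadherin of osteoblasts and mesenchyme. It had 12333, 12246 and 12331 reads with DMSO and 12492, 12476, 13053 and 12823 with purmorphamine. The deposited counts did not overlap, yet after normalization the log2 fold change was 0.00 (SE 0.0435, edgeR adjusted p = 0.9997). With library totals in place of the TMM factors it was 0.05 (edgeR adjusted p = 0.372), and this scaling moved the median of all genes by 0.0475.

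The remaining Cdh genes tested were atypical cadherins. Cdh17 encodes liver-intestine cadherin, an epithelial cadherin with a short tail that does not bind catenins, and lies at chr4:11758147-11817895. It had 5, 3 and 6 reads with DMSO and 187, 171, 198 and 227 with purmorphamine. The mean was 4.67 ± 1.53 reads in the first group and 196 ± 23.6 in the second. This is a 41.9-fold ratio and a log2 fold change of 5.31 (SE 0.225). No p-value is given for Cdh17, since it passed the filter on low counts only through the purmorphamine libraries. Cdh13 encodes T-cadherin, which is held in the membrane by a lipid anchor and binds adiponectin. It had 359, 401 and 372 reads with DMSO and 501, 558, 484 and 549 with purmorphamine, again without overlap. It rose by 0.42 on the log2 scale (SE 0.0712, edgeR adjusted p = 0.000109). Cdh26 was not called, with 111, 113 and 116 reads with DMSO and 107, 94, 100 and 115 with purmorphamine, which overlap (log2 fold change -0.17, edgeR adjusted p = 0.229). Without purmorphamine replicate 8 its adjusted p in edgeR was 0.161.

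**Figure D2:**
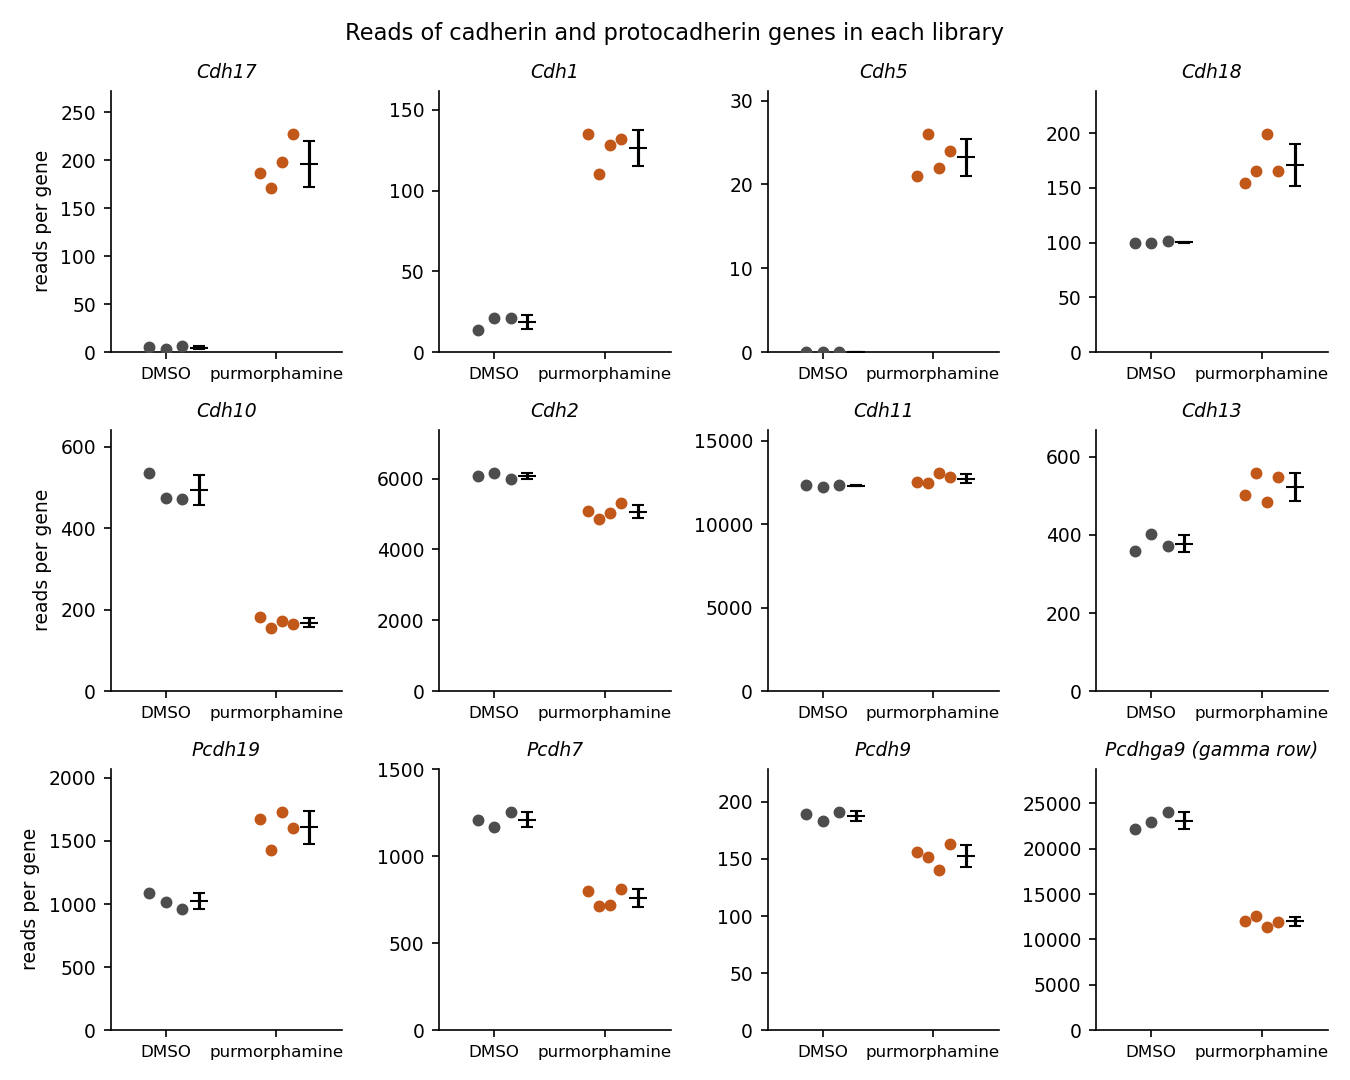
Deposited reads of 12 members in each library, with 1 panel per gene, the libraries as points, and the mean and SD of each group as a bar beside them on axes that start at 0. The groups do not overlap in any panel, though in Cdh11 the difference is not called after normalization.

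Of the 11 protocadherin genes outside the clusters, 5 were tested. Among these 5, 1 increased, 3 decreased and 1 was not called, beside 31.4% increased and 31.1% decreased of all genes tested. Pcdh19, an X-linked protocadherin that works with N-cadherin and is mutated in an epilepsy of girls, lies at chrX:133582860-133688987. It had 1089, 1014 and 964 reads with DMSO and 1673, 1432, 1729 and 1600 with purmorphamine. Every purmorphamine library was above every DMSO library, and the log2 fold change was 0.61 (SE 0.0656, edgeR adjusted p = 8.28e-07). Pcdh7, a protocadherin known from axons and from metastatic cells, lies at chr5:57717967-58133230. It had 1208, 1168 and 1254 reads with DMSO and 798, 714, 718 and 814 with purmorphamine. The groups lay far apart, and Pcdh7 fell by 0.72 on the log2 scale (SE 0.058, edgeR adjusted p = 2.16e-08). Pcdh9, found mainly in the nervous system, lies at chr14:93013410-93890679. It had 189, 183 and 191 reads with DMSO and 156, 152, 140 and 163 with purmorphamine, which did not overlap, and fell by 0.34 on the log2 scale (SE 0.0921, edgeR adjusted p = 0.00558).

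The other tested protocadherins outside the clusters were less clear. Pcdh1, a protocadherin of airway epithelium, had 31, 35 and 48 reads with DMSO and 33, 30, 23 and 32 with purmorphamine. The groups overlapped, and the call (log2 fold change -0.41, SE 0.208, edgeR adjusted p = 0.117) was lost without DMSO replicate 4 (adjusted p = 0.524) or purmorphamine replicate 7 (adjusted p = 0.255) and in DESeq2 (adjusted p = 0.283). Pcdh18 had 2037, 2123 and 2188 reads with DMSO and 2135, 2360, 2301 and 2252 with purmorphamine. It was not called after normalization (log2 fold change 0.05, edgeR adjusted p = 0.433), but was called with library totals alone (adjusted p = 0.111).

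The order by abundance of the 15 Cdh and non-clustered Pcdh genes tested was compared per length, as TMM-scaled reads per kilobase of GENCODE exon. Of these, Cdh11 was highest at 1408 ± 11.5 with DMSO and 1408 ± 37.1 with purmorphamine, followed by Cdh2 at 766 ± 7.42 and 619 ± 22.9. Pcdh18 came next at 402 ± 14.9 and 416 ± 17.5. These 3 genes held the same ranks in both groups. Pcdh7 was above Pcdh19 with DMSO, at 116 ± 4.61 and 99.6 ± 6.08, and below it with purmorphamine, at 70.8 ± 4.77 and 152 ± 12.9. Cdh10 went from 50.1 ± 3.68 to 16.5 ± 1.18 reads per kilobase. Cdh17 moved from rank 14 of 15, at 1.06 ± 0.352, to rank 7, at 43.2 ± 5.22. There it lay next to Cdh13 at 45.9 ± 2.95, and these neighbours were closer than their SDs. Cdh1 went from 4.16 ± 0.897 to 27.2 ± 2.47 and so stayed far below Cdh2. Cdh24 and Pcdh1 with DMSO, at 4.48 ± 0.43 and 4.4 ± 1.04, were not separated from Cdh1 by more than their SDs.

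**Figure D3:**
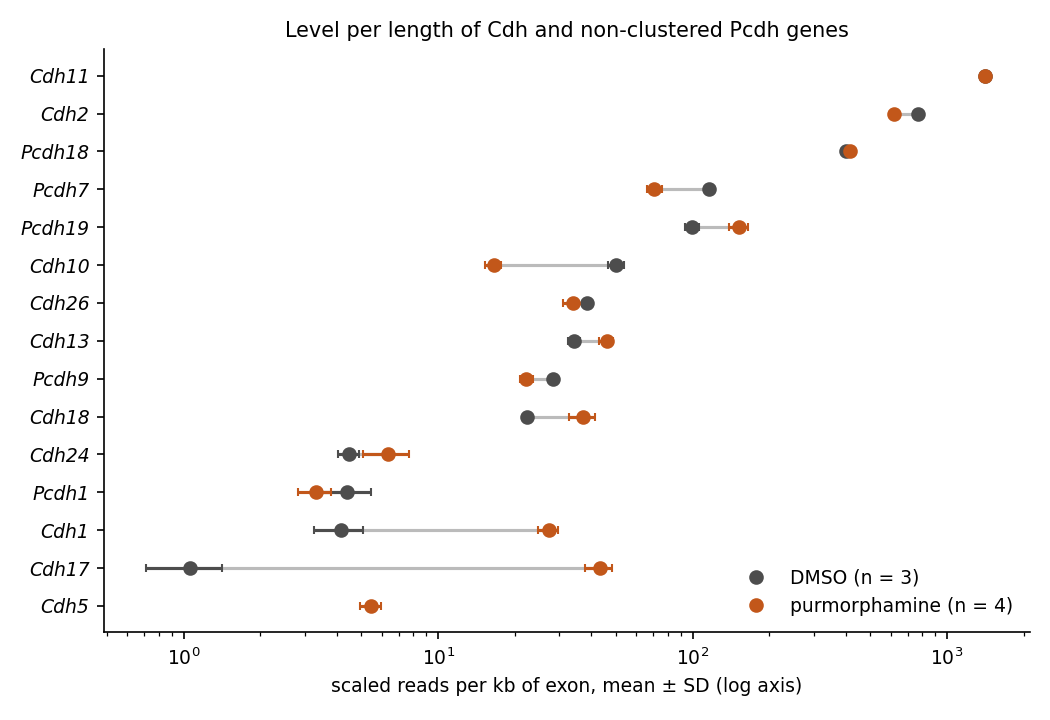
TMM-scaled reads per kilobase of exon (log axis, mean ± SD) of the 15 Cdh and non-clustered Pcdh genes tested, with DMSO (n = 3) in grey and purmorphamine (n = 4) in orange. The 2 points of Cdh11 coincide at 1408, Cdh17 moves from 1.06 to 43.2, and the DMSO level of Cdh5 is 0 and so is not drawn.

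The proximal promoters of 4 of these genes are shown because Cdh10 and Pcdh7 had the largest decreases and Cdh18 and Pcdh19 the largest increases among the tested Cdh and non-clustered Pcdh genes that had a promoter in the RefSeq table used (16 of the 52 members matched by symbol). Each runs from 250 bases before the RefSeq transcription start to 50 after it on the gene's strand in GRCm38.p6, and the start used can lie inside the longer GENCODE gene. The windows are chr15:18820079-18820378 (+) for Cdh10, chr5:57717831-57718130 (+) for Pcdh7, chr15:23036213-23036512 (+) for Cdh18 and chrX:133688944-133689243 (-) for Pcdh19. Capitals mark the E-box CACCTG, the site of Snail and Zeb repressors of E-cadherin, on either strand.
Cdh10: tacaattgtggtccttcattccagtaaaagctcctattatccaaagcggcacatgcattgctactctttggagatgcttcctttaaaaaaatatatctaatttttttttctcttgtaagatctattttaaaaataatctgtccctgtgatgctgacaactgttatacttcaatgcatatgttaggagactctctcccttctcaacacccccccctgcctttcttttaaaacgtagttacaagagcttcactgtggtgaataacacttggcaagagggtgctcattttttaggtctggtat
Pcdh7: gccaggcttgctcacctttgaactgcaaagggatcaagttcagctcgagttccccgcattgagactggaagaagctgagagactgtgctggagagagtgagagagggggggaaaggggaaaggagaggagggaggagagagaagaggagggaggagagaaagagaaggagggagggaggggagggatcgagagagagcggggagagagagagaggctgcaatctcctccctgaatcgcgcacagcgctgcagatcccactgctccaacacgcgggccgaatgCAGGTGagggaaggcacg
Cdh18: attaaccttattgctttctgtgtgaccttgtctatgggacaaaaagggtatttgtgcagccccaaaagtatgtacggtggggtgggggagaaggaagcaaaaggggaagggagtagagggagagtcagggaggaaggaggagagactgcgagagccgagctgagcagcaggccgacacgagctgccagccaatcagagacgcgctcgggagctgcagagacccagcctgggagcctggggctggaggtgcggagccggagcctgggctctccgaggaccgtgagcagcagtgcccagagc
Pcdh19: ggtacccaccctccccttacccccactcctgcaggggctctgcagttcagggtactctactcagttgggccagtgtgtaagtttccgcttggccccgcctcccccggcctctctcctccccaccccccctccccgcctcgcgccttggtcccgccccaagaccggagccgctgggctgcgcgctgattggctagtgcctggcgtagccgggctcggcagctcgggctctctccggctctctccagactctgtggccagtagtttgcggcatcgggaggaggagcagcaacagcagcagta

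These windows differed in composition. The GC content was 37.7% for Cdh10, 59.3% for Pcdh7, 60.3% for Cdh18 and 67.7% for Pcdh19, beside a median of 52.7% over all promoter windows. The windows held 2, 11, 12 and 18 CpG pairs in the same order, and the median window held 7. The E-box was present once in the Pcdh7 window, 32 bases after the start, and in 20.2% of all 32851 windows. Of the 17 member windows, those of Pcdh15 and Pcdh7 held it. The Gli site GACCACCCA, searched on both strands, was in 0.253% of all windows and in 0 member windows, which says only that these letters are not in these stretches.

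The gamma protocadherins were counted in a single row. It is labelled Pcdhga9, but its identifier (ENSMUSG00000023036) is named Pcdhgc4 in GENCODE M21, it spans 168 kb in the table, and its exons are shared with 25 other annotated genes on the same strand. It is therefore read as the gamma cluster, whose genes join a variable first exon to shared constant exons, and not as 1 gene. It had 22162, 23008 and 24044 reads with DMSO and 12048, 12631, 11358 and 11925 with purmorphamine. The purmorphamine mean was 0.52 of the DMSO mean (11990.5 ± 522 against 23071 ± 943), with no overlap and a log2 fold change of -0.99 (SE 0.0482, edgeR adjusted p = 3.06e-11). This row held 43.0% of all reads of the 52 members with DMSO and 28.7% with purmorphamine.

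The beta cluster, whose genes each consist of a single coding exon without shared constant exons, moved the same way with smaller changes. Of 20 beta rows tested, 12 decreased, 0 increased and 8 were not called, beside 31.1% decreased and 31.4% increased of all genes tested. The median log2 fold change was -0.22. Values lay below 0 in 19 of 20 beta rows and in 6106 of all 12388 genes tested. In sum, the 21 beta rows held 6439, 6650 and 6442 reads with DMSO and 5780, 5728, 6104 and 5710 with purmorphamine, a ratio of means of 0.896. The sums did not overlap. Paralogs of this cluster are similar in sequence, so reads may be divided between them, and the Pcdhb21 and Pcdhb22 exons overlap by 455 bases.

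Pcdhb16 was the most abundant beta row. It had 2179, 2214 and 2210 reads with DMSO and 1958, 1963, 2073 and 1997 with purmorphamine, which did not overlap (log2 fold change -0.19, SE 0.0445, edgeR adjusted p = 0.00239). Pcdhb17 followed with 764, 811 and 744 reads, against 735, 636, 758 and 712, which overlapped (log2 fold change -0.17, edgeR adjusted p = 0.0417). The steepest decreases were in less abundant rows. Pcdhb7 had 87, 77 and 84 reads with DMSO and 58, 60, 50 and 45 with purmorphamine (log2 fold change -0.68, SE 0.143, edgeR adjusted p = 0.000849). Pcdhb11 had 406, 356 and 348 reads, against 256, 284, 250 and 249 (log2 fold change -0.56, edgeR adjusted p = 2.58e-05). Neither gene's groups overlapped.

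In the beta cluster, 4 of the 12 calls were lost when single libraries were left out of the edgeR fit, and in DESeq2. That of Pcdhb4 (log2 fold change -0.46) was lost without DMSO replicate 2 (adjusted p = 0.265) or 4 (0.457), or purmorphamine replicate 6 (0.332) or 8 (0.257). That of Pcdhb5 (-0.23) was lost without DMSO replicate 2 (0.225) or 3 (0.362), or purmorphamine replicate 5 (0.44). That of Pcdhb15 (-0.17) was lost without DMSO replicate 3 (0.617) or 4 (0.222), or purmorphamine replicate 5 (0.471), 6 (0.271) or 8 (0.254). That of Pcdhb22 (-0.19) was lost without DMSO replicate 2 (0.277) or 3 (0.326), or purmorphamine replicate 6 (0.293) or 8 (0.235). These 4 genes had overlapping groups. Conversely, 3 uncalled genes passed the threshold without 1 library, namely Pcdhb2 without DMSO replicate 3 (adjusted p = 0.101) or purmorphamine replicate 7 (0.132), Pcdhb3 without purmorphamine replicate 8 (0.124) and Pcdhb19 without purmorphamine replicate 7 (0.127). The other 8 calls, those of Pcdhb7, Pcdhb9, Pcdhb10, Pcdhb11, Pcdhb12, Pcdhb16, Pcdhb17 and Pcdhb20, held whichever library was left out.

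Along the chromosome, the rows from Pcdhb2 to Pcdhb12 had a median log2 fold change of -0.48 (from -0.68 to -0.21, 7 of 10 tested decreased). The rows from Pcdhb13 to Pcdhb22 had a median of -0.12 (from -0.25 to 0.02, 5 of 10 decreased). The share called decreased over all genes tested was 31.1%. The boundary was chosen after the values had been seen, and the difference between the stretches was not tested. The alpha cluster was barely measured. Its 2 rows together held 15, 7 and 11 reads with DMSO and 9, 8, 11 and 9 with purmorphamine, and both were too low to test. These rows overlap, and the one labelled Pcdha4 shares exons with 13 other annotated genes. Reads that fit more than 1 of them may have been left out. The level of the alpha cluster and any change in it are therefore not known from these rows.

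**Figure D4:**
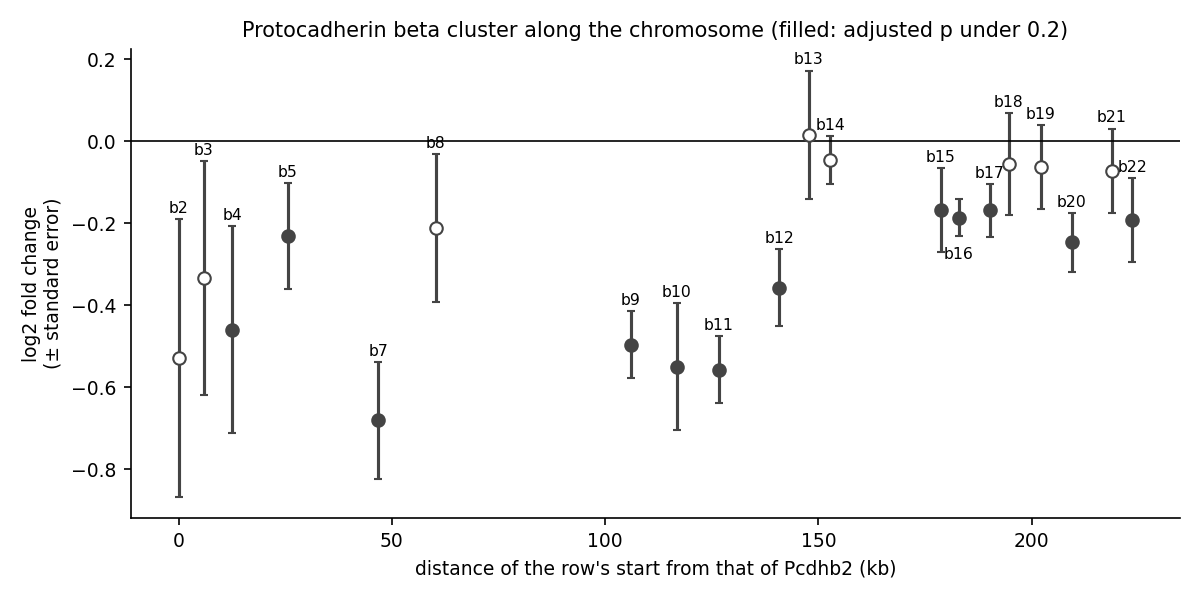
Log2 fold change of the 20 tested beta protocadherin rows against the distance of each row's start from that of Pcdhb2 (kb), with bars for the standard error and filled points for edgeR adjusted p under 0.2. Points from b2 to b12 lie between -0.68 and -0.21, and points from b13 to b22 between -0.25 and 0.02.

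The 16 rows that could not be tested held few reads, and 12 of them had at most 5 in every library. Among them were Cdh6 (K-cadherin), Cdh16 (the kidney cadherin) and the neural genes Pcdh8, Pcdh10 and Pcdh20. Cdh23 and Pcdh15 encode the partners that form the tip link of inner ear hair cells, and they went in opposite directions. Cdh23 had 5, 1 and 1 reads with DMSO and 12, 11, 10 and 7 with purmorphamine, a ratio of summed reads of 4.15 after scaling (95% counting interval 1.84 to 11.0). Pcdh15 had 6, 11 and 11 reads with DMSO and 2, 2, 0 and 1 with purmorphamine, a ratio of 0.13 (0.0391 to 0.34). In neither gene did the groups overlap, and the exact two-sided permutation test gave p = 0.0286 for both, the smallest that 3 libraries against 4 allow. When no filter was applied, the edgeR adjusted p was 0.00493 for Cdh23 and 0.000551 for Pcdh15. These intervals cover counting error only.

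Of 16 genes tested for catenins and adherens junction partners, which join cadherins to actin, 6 increased, 6 decreased and 4 were not called. Both shares were 37.5%, near those of all genes, and the median log2 fold change was 0.0022. Ctnnd1, the catenin that holds cadherins at the membrane, had 20113, 20211 and 20455 reads with DMSO and 10817, 10450, 10565 and 11186 with purmorphamine (log2 fold change -0.96, edgeR adjusted p = 1.39e-11). Its relative Arvcf rose by 0.996 on the log2 scale, Jup (plakoglobin) by 0.84, and Mllt4, which encodes the nectin-binding afadin, by 1.13. None of these genes' groups overlapped. Of 4 nectins tested, 1 increased and 1 decreased, beside 31.4% and 31.1% of all genes tested. Pvrl3 (nectin-3) rose by 0.40 and Pvrl2 (nectin-2) fell by 0.32 on the log2 scale. Of 3 desmosome genes tested, Perp rose by 0.95 and Pkp1 (plakophilin-1), whose groups overlapped, fell by 1.10.

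Other genes with cadherin domains, tested in 10 rows, included 2 that increased and 6 that decreased (median -0.33). Over all genes tested, 31.4% increased and 31.1% decreased. However, 6 of the 10 rows passed the filter on low counts through 1 group only, namely Fat2, Cdhr1, both Cdhr4 rows, Celsr2 and Dchs1. All but Dchs1, which had a mean of 13 reads in each group, had more reads in the group that passed. Of the other 4 rows, 1 increased and 2 decreased. Fat2, a giant protocadherin of migrating epithelia, had 3, 3 and 0 reads with DMSO and 96, 67, 77 and 52 with purmorphamine, a scaled ratio of 35.3 (95% counting interval 16.0 to 97.1). Cdhr1, a photoreceptor cadherin, had 20, 24 and 15 reads with DMSO and 4, 6, 5 and 0 with purmorphamine and fell by 2.40 on the log2 scale. The 2 rows labelled Cdhr4 had log2 fold changes of -2.45 and -1.82, but the first has an identifier that GENCODE M21 names Gm20661.

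Of 10 transcription regulators of E-cadherin and N-cadherin tested, 4 increased and 4 decreased, beside 31.4% and 31.1% of all genes tested. Known repressors of Cdh1 moved in both directions. Snai1 and Snai2, which encode Snail and Slug, fell, and Zeb2 and Twist1, named here after their values had been seen, rose. Snai1 had 562, 686 and 652 reads with DMSO and 413, 458, 331 and 361 with purmorphamine (log2 fold change -0.74, edgeR adjusted p = 5.22e-06). Snai2 fell by 0.72 (edgeR adjusted p = 3.43e-09). Zeb2 had 1997, 2014 and 1984 reads with DMSO and 2989, 3149, 3158 and 2923 with purmorphamine (log2 fold change 0.57, edgeR adjusted p = 2.76e-08). Twist1 rose by 0.65 (edgeR adjusted p = 6e-07), and the rows of Zeb1 held at most 2 reads in any library. The Zeb1 rows cover nearly the same stretch of the genome, so reads that fit both may have been left out. The level of Zeb1 is therefore not known from them. Grhl1, of the Grainyhead family of epithelial activators, fell by 1.65 (edgeR adjusted p = 1.7e-05), and Twist2, a mesenchymal factor, rose by 2.11 (edgeR adjusted p = 4.37e-09). Regulators of clustered protocadherin promoters, namely CTCF, cohesin and DNA methylation genes, moved within a narrow range. Of 11 tested, 4 increased and 2 decreased, beside the same shares of all genes. The largest changes called were in Dnmt3b, a DNA methyltransferase (log2 fold change -0.36), and in the cohesin genes Rad21 (0.26), Wapal (-0.16) and Smc3 (0.11).

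Of 10 genes for cytoplasmic partners of protocadherins, 5 increased and 3 decreased, beside 31.4% and 31.1% of all genes tested. The kinase genes Ptk2b and Fyn rose by 1.15 and 0.56 on the log2 scale (edgeR adjusted p = 0.000693 and 2.24e-06). The actin regulators of the WAVE family moved apart, with Wasf1 at -0.38 and Wasf2 at 0.16. Of 10 genes for the shedding and turnover of cadherins, mostly proteases and their subunits, 3 increased and 4 decreased, near the shares of all genes. Adam15 rose by 0.72 and Psen2, of the gamma-secretase, by 0.58 on the log2 scale. Furin, which cleaves the cadherin propeptide, fell by 0.48, and Mmp14, a membrane metalloprotease, by 0.30.

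**Figure D5:**
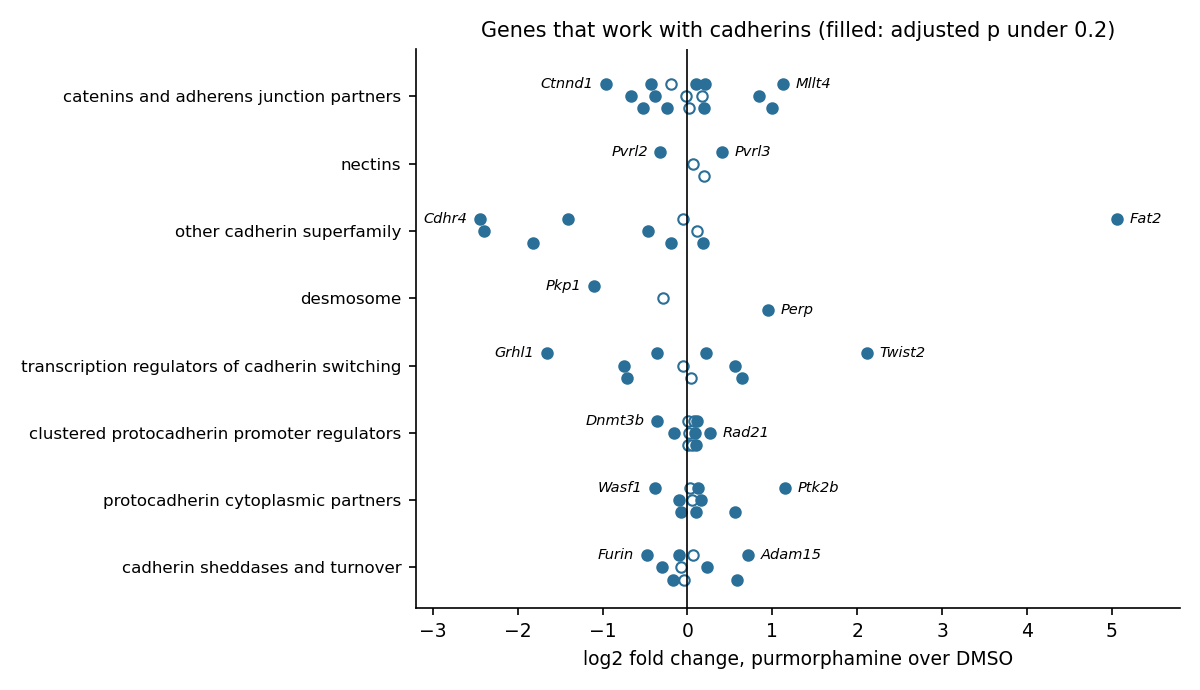
Log2 fold change of purmorphamine over DMSO for tested genes of 8 lists that work with cadherins, with 1 point per row, filled at edgeR adjusted p under 0.2, and the lowest and highest of each list named. The points lie on both sides of 0 in each list, and Fat2 is farthest to the right, with 3 or fewer reads in each DMSO library.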

How the data were processed

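RNA was measured by stranded total RNA sequencing after ribosomal RNA removal, with single reads of 100 bases, in 3 DMSO and 4 purmorphamine libraries. The deposited table holds counts, whole sense-strand reads per gene, which the authors made after drawing each library's reads at random to an equal depth. This equalizes library totals, removes differences in sequencing depth and discards reads, which adds counting error for genes with few reads. The submitters' processing notes name STAR 2.5.3a and mm9, and the annotation is not given in the sources used here. Identifiers matched GENCODE M21 for 95.5% of rows, from which gene positions and exon lengths in GRCm38 were taken.

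Counts were tested in edgeR 4.0.16 (R 4.3.3) with filterByExpr at its defaults, TMM factors (0.978 to 1.02), the quasi-likelihood test and Benjamini-Hochberg adjustment over 12388 genes, and were called at 0.2. In the study the counts had been tested with limma-voom at the same rate. Single values were also compared by an exact two-sided permutation test over 35 assignments of the libraries, on log2 of scaled reads plus 1. Intervals and the limit of 3 reads cover counting error only. On simulated counts with 200 changed genes among 12361 tested, 100% of changed genes were recovered and 16% of calls were false. Far more genes were called in the deposited counts, 3887 increased and 3854 decreased. The share of changed genes recovered in the deposited counts, including small changes on few reads, was not tested.

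Members and lists were chosen with earlier results of these data known. Every Cdh and non-clustered Pcdh gene tested is named, as are the 3 most abundant and the 3 most decreased clustered rows (none increased) and up to 4 called genes of each list with the largest change. Other genes named (Vim, Pdgfra, Tek, Zeb1, Zeb2, Twist1, Celsr2, Dchs1, and clustered or untested members beyond this rule) were chosen after their values had been seen. Alternatives were library totals alone, DESeq2 1.42.0 and its size factors, limma-voom (limma 3.58.1), other filters and thresholds, omission of the clustered protocadherins, and omission of each library.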

Additional observations from a re-analysis of the deposited data

Results flagged for a closer look

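In the purmorphamine group, replicate 7 stood apart from the other libraries in Pcdhb19, a beta cluster protocadherin, which had 308, 300, 396 and 306 reads in purmorphamine replicates 5 to 8 and 305, 372 and 317 with DMSO. The gap from replicate 7 to its nearest neighbour was 0.907 of the group's whole range after scaling, above Dixon's 95% critical value for 4 samples. Of 64 genes examined 1 stood apart in this way, and chance gives about 3.2. Without that library the log2 fold change of Pcdhb19 was -0.16 (edgeR adjusted p = 0.127).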

How the results depend on the processing

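No paired analysis was possible because no replicate number occurs in both groups. Of 537 values of the 36 members under the alternatives, 467 kept their direction and their side of the threshold, 54 lost a call, 6 gained one and 10 changed sign. Of 25 calls, 19 held whichever single library was left out. The members that decreased numbered 18, and 4 when a change of at least 1.5-fold was required and 5 without the clustered protocadherins, which leaves fewer rows to count. They numbered 15 with library totals alone. DESeq2, run with its own filter, gave 14, of which 13 were among the 36 members and the other was Pcdh15. Leaving out 1 library in turn gave 15 to 19 members that decreased and 6 to 8 that increased. Nectins that increased went from 1 to 3 with library totals alone, and cytoplasmic partners of protocadherins that decreased went from 3 to 1 with library totals alone and to 1 with DESeq2. The cause was not tested. In an alternative chosen after seeing the data, genes that had passed the filter on low counts through 1 group only were left out. Members that increased then numbered 5 and those that decreased 18, and among other genes with cadherin domains 1 increased in place of 2 and 2 decreased in place of 6, as fewer rows were counted. Library totals alone moved the median of all genes by 0.0475 on the log2 scale, with 4650 genes called increased and 3163 decreased, against 3887 and 3854.

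The values that changed sign were near 0 and were not called. Pcdhb14 was at 0.0012 with library totals alone and Cdh11 at -0.00032 with limma-voom. Across the omissions of 1 library, the log2 fold change lay between -0.044 and 0.12 for Pcdhb13, -0.16 and 0.11 for Pcdhb18, -0.16 and 0.024 for Pcdhb19, and -0.0096 and 0.0196 for Cdh11. Depth limits the 16 untested rows and calls on few reads, such as Cdh24 and Pcdhb4.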
